A study of Mus musculus with 6 samples.

Results

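The 46 genes described here make up the core of the DNA damage response in mouse, including the genes named for Fanconi anaemia. They were taken by symbol from a fixed list, and all 46 were found among the 54532 genes of the deposited table. By role, 10 belong to damage signalling, 21 to homologous recombination and 5 to end joining. The 10 with a Fanc symbol form the Fanconi group. Whole testis of mice on postnatal day 9 was compared between wild type (3 libraries) and a conditional knockout of Ppp6r3, labelled Ppp6r3 cKO (3 libraries). The product of Ppp6r3 is one of the subunits that direct protein phosphatase 6 to its substrates. No Cre line, deleted exon, strain or treatment is named in the labels for either group, nor whether each library came from its own animal. Every p-value below therefore speaks only of the variation among these 6 libraries, and part of it may be technical. All levels are FPKM, fragment counts scaled by exon length and library size. In whole tissue, fewer cells of a type and less RNA per cell cannot be told apart.

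Damage signalling begins with the kinases ATM, which responds to double-strand breaks, and ATR, which responds to single-stranded DNA. They act through the checkpoint kinases CHK2 and CHK1 and through adaptors such as MDC1. Homologous recombination copies the lost sequence from an intact chromatid, end joining ligates the broken ends directly, and the Fanconi proteins unhook crosslinked strands. In the testis, proteins of these pathways guard dividing spermatogonia. In spermatocytes, many of the signalling and recombination proteins act in processing the programmed breaks of meiosis or in silencing the unpaired sex chromosomes.

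Ppp6r3 itself read 20.8, 21.3 and 21.005 FPKM in the wild-type libraries and 15.8, 15.3 and 14.9 FPKM in the Ppp6r3 cKO libraries, with a log2 fold change of -0.45 (SE 0.042, limma adjusted p = 0.000698). The libraries held 15970908 to 16606868 fragments, as inferred from the steps between FPKM values. Markers of Sertoli, Leydig, myoid, endothelial and macrophage cells and of meiotic and undifferentiated germ cells were all detected, with no listed marker at 0 in every library. Ppp6r3 cKO replicate 1 differed more from the other 2 knockout libraries (chi-square per degree of freedom of recovered fragments 4.35 and 4.29) than any other pair within a group (2.23 to 2.75). Over the 17672 genes tested, 1384 (7.83%) fell and 1352 (7.65%) rose at a limma adjusted p under 0.05, and the median log2 fold change was 0.003.

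Of the 46 genes 7 fell and none rose, while 39 did not pass. That is 15.2% lower, against the 7.83% of all genes that fell and the 7.65% that rose. At an unadjusted limma p under 0.05, 17 were lower and none higher, where 15.6% of all genes were lower and 15.8% higher. With voom, a count-based alternative in limma, 13 fell and none rose, where 12.1% of all genes fell and 10.9% rose. The 7 that fell were the signalling genes Mdc1, Chek1, Atr and Topbp1, the recombination genes Brip1 and Rad51b, and the Fanconi gene Fancg. Without wild-type replicate 2 or wild-type replicate 3 the count was 3. For 22 of the 46 genes every knockout library was lower than every wild-type library (47.8%; 18.2% of all genes), and for 2, Chek2 and Rad54b, every knockout library was higher (18.8% of all genes). The median log2 fold change of the 46 was -0.12, and 29 of them had a value below 0. Expression was moderate, with wild-type means from 0.51 to 22.7 FPKM and a median of 6.15, where the median of all genes tested was 5.196.

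Promoter windows are shown first for the fallen genes whose window holds the E2F motif, because E2F factors switch on many replication and repair genes in cycling cells. RefSeq windows on GRCm38.p6, from 250 bases before to 50 bases after the start of transcription, were found for 37 of the 46 genes (41 windows), including all 7 that fell. The motif was searched as TTTNNCGC on both strands, a loose form in which N is any base, and capitals mark the match. Each stretch reads 5′ to 3′ on the strand of its gene: Mdc1 at chr17:35841432-35841539 on the plus strand, Brip1 at chr11:86201325-86201432 on the minus strand, Fancg at chr4:43010296-43010403 on the minus strand and Topbp1 at chr9:103305148-103305255 on the plus strand.
Mdc1: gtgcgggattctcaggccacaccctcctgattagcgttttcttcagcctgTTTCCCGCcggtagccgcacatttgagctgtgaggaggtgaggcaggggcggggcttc
Brip1: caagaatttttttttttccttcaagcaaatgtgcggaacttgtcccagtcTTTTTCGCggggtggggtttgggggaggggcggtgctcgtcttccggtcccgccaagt
Fancg: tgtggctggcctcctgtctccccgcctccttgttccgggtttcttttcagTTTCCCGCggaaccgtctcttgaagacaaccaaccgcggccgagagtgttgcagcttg
Topbp1: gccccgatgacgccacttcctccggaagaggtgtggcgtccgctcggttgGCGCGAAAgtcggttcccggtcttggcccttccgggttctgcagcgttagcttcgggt
Mdc1 and Fancg hold the same 8 letters, and the match in Topbp1 is on the opposite strand. Both N positions hold G or C in Mdc1, Fancg and Topbp1, and T in Brip1. Counted from the RefSeq start of transcription, the match begins at position -16 in Mdc1, -52 in Fancg, -129 in Topbp1 and -189 in Brip1. In GENCODE the gene Fancg starts further upstream, at 43010506 on the minus strand, so its match lies inside that gene.

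Of the 41 windows of these genes, 9 (22%) hold TTTNNCGC, against 1698 (5.17%) of all 32851 windows in the table. Besides the 4 shown, the match is in windows of Bard1, Chek2, Rad51c and Xrcc6, whose RNA did not pass, and it is not among the letters of the Atr, Chek1 and Rad51b windows. The windows of these genes are richer in GC (median 59.7%, against 52.7%) and in CG dinucleotides (median 22, against 7), and the motif contains a CG. The CCAAT box of NF-Y was in 58.5% of these windows and 37.4% of all windows. Shares for the E-box CACGTG were 7.32% and 7.15%, and for the motif CNCCTCAG, described for the meiotic factors STRA8 and MEIOSIN, 9.76% and 7.94%. TTTGAA, the core of the CHR element of mitotic genes, was in 9.76% and 17.9%. Matches of different motifs overlapped in 1 place, a CCAAT box and TTTGAA in the window of Rnf8, and a match is a description of the letters only.

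Damage signalling held 4 of the 7 genes that fell. These were 40% of its 10 genes, against 7.83% of all genes, and the count was 2 without wild-type replicate 2 or wild-type replicate 3. Of the 10 genes 6 did not pass and none rose, and the median log2 fold change was -0.18. Mdc1 encodes the adaptor that binds phosphorylated histone H2AX and spreads the damage signal along chromatin, in spermatocytes along the sex chromosomes (ENSMUSG00000061607, chromosome 17, 35841515 to 35859670 in GENCODE M21 on GRCm38). It read 19.3, 18.9 and 19.5 FPKM in the wild-type libraries and 13.1, 11.9 and 12.8 FPKM in the knockout libraries. The groups were far apart, and the Ppp6r3 cKO mean was 34.4% lower (log2 fold change -0.61, SE 0.050, limma adjusted p = 0.000431).

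The other 3 belong to the ATR branch. Chek1, which encodes the checkpoint kinase downstream of ATR (chromosome 9, 36708482 to 36727065), read 6.70, 5.76 and 6.295 FPKM in the wild-type libraries and 4.53, 4.45 and 4.65 FPKM in the knockout libraries. The lowest wild-type library was still above the highest Ppp6r3 cKO library (log2 fold change -0.45, SE 0.071, limma adjusted p = 0.00606). Atr itself (chromosome 9, 95857597 to 95951781) read 5.90, 6.07 and 6.49 FPKM in the wild-type libraries and 4.03, 4.97 and 4.72 FPKM in the knockout libraries. Replicate 1 was the lowest of the knockout libraries, and the groups did not overlap (log2 fold change -0.42, SE 0.088, limma adjusted p = 0.0162). The call was lost without wild-type replicate 2 or wild-type replicate 3. Topbp1, which encodes the protein that activates ATR (chromosome 9, 103305215 to 103350428), read 17.1, 16.9 and 16.8 FPKM in the wild-type libraries and 13.95, 15.3 and 14.4 FPKM in the knockout libraries. Its change was the smallest of the 7, with a mean 14.1% lower (log2 fold change -0.22, SE 0.047, limma adjusted p = 0.0193). That call held in only 2 of the 6 fits that left out a library, those without Ppp6r3 cKO replicate 1 or 2. Atrip, whose product holds ATR on DNA, had a log2 fold change of -0.14 (95% interval -0.31 to 0.03) and did not pass.

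Of the kinases in the ATM branch neither passed. Atm had a log2 fold change of -0.10 (95% interval -0.22 to 0.02) and Chek2, its checkpoint kinase, one of 0.14 (-0.01 to 0.28). Chek2 read 4.796, 5.36 and 5.05 FPKM in the wild-type libraries and 5.47, 5.63 and 5.62 FPKM in the knockout libraries, so all 3 knockout libraries were higher, without passing the test (limma adjusted p = 0.195). The ubiquitin ligase genes Rnf8 and Rnf168, which act after MDC1, had log2 fold changes of -0.23 and 0.10, and Trp53bp1, which favours end joining, one of 0.02. None of the 5 passed. Rnf8 was called lower with voom and without Ppp6r3 cKO replicate 1.

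The 2 checkpoint kinases changed order in FPKM between the genotypes. The ratio of Chek1 to Chek2 FPKM was 1.398, 1.07 and 1.25 in wild type and 0.828, 0.791 and 0.828 in Ppp6r3 cKO. By FPKM, Chek1 was the higher of the pair in every wild-type library and the lower in every knockout library. The difference of the log2 ratio was -0.60. In recovered fragments, before division by exon length, Chek1 was higher in every library (330 to 516, against 239 to 272). The change of order therefore depends on the exon lengths used (4635 bases for Chek1, 3001 for Chek2), while the fall of the ratio does not. The ratio of Atr to Atm was 0.687, 0.699 and 0.735 in wild type and 0.523, 0.5995 and 0.568 in Ppp6r3 cKO, a difference of -0.33 on the log2 scale. These 2 ratios were chosen after the values were seen, and for each the exact 2-sided permutation test gave p = 0.1, the smallest it can give with 3 against 3 libraries.

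**Figure D1:**
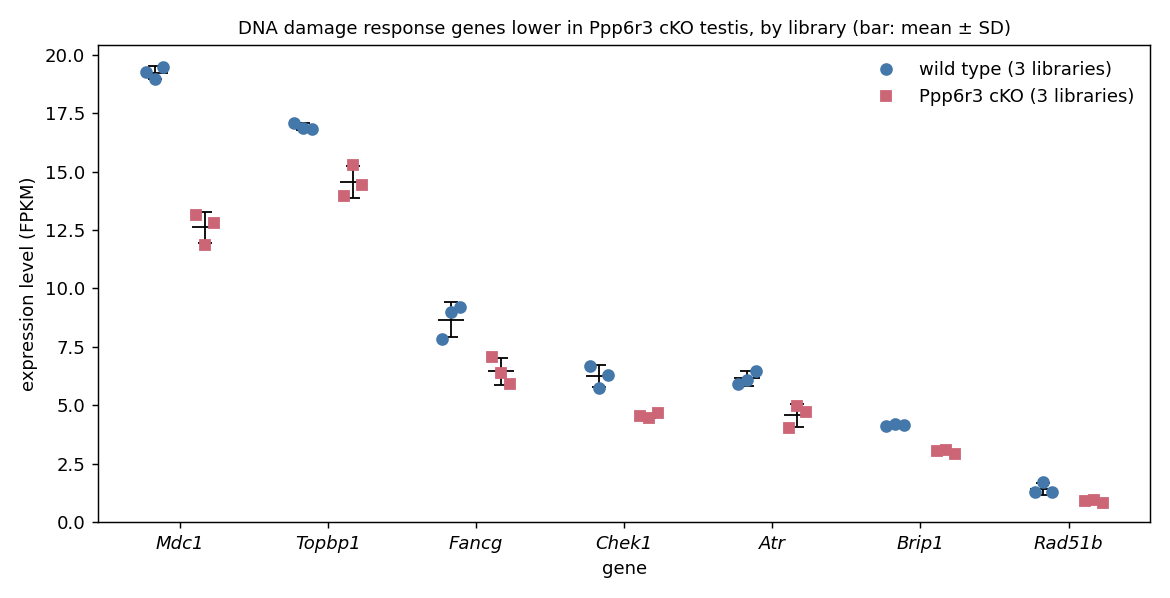
Expression level (FPKM) of the 7 genes that fell, in each of the 3 wild-type libraries (blue circles) and 3 Ppp6r3 cKO libraries (red squares), with the mean and SD of each group in black. For each gene all knockout libraries lie below all wild-type libraries, from Mdc1 (mean 19.2 against 12.6 FPKM) to Rad51b (1.43 against 0.90 FPKM).

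In homologous recombination 2 of 21 genes fell (9.52%, against 7.83% of all genes), none rose and 19 did not pass. Their median log2 fold change was -0.14, and 10 of the 21 (47.6%, against 18.2% of all genes) had all knockout libraries below all wild-type libraries. Brip1 encodes a helicase that binds BRCA1 and is also known as FANCJ (chromosome 11, 86058138 to 86201193). It read 4.13, 4.22 and 4.17 FPKM in the wild-type libraries and 3.04, 3.08 and 2.93 FPKM in the knockout libraries. Both groups were tight, and the knockout mean was 27.7% lower (log2 fold change -0.45, SE 0.070, limma adjusted p = 0.00552). Rad51b encodes a subunit of a complex that assists strand exchange (chromosome 12, 79297282 to 79814690) and was the weakest expressed of the 7. It read 1.28, 1.73 and 1.28 FPKM in the wild-type libraries and 0.93, 0.93 and 0.84 FPKM in the knockout libraries. Wild-type replicate 2 stood above the other wild-type libraries, and the call (log2 fold change -0.60, SE 0.157, limma adjusted p = 0.0365) was lost on leaving out any 1 of the 6 libraries.

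The genes related to Rad51b did not pass. Rad51c and Xrcc3 had log2 fold changes of -0.22 each, Xrcc2 -0.05 and Rad51d 0.04. For Rad51c and Xrcc3 all knockout libraries were below all wild-type libraries, and voom called both lower. Of the genes that start resection, Rbbp8, which encodes CtIP, was just outside the threshold (log2 fold change -0.23, limma adjusted p = 0.0582), and of the MRN complex Mre11a had -0.14, Nbn -0.15 and Rad50 0.01. With voom Rbbp8 (adjusted p = 0.00179) and Mre11a (adjusted p = 0.0492) were called lower. The exonuclease gene Exo1 had 0.02. The 95% intervals of Rad50 (-0.11 to 0.13) and Exo1 (-0.11 to 0.14) were narrow.

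Brca1, the tumour suppressor that directs broken ends into recombination, read 8.46 ± 0.60 FPKM in the wild-type and 8.49 ± 0.20 FPKM in the knockout libraries (SD, n = 3 per group). Its log2 fold change was 0.01 with a 95% interval of -0.14 to 0.15, while its helicase partner Brip1 fell. Bard1, which encodes the obligate partner of BRCA1 in its ubiquitin ligase, had -0.07, and Palb2, which links BRCA1 to BRCA2, -0.16. Later steps gave small values as well. The translocase genes Rad54l and Rad54b had 0.08 each, Rad52 -0.15 and the helicase gene Blm -0.13. Among nucleases that cut joint molecules, Mus81 had -0.19, its partner Eme1 -0.15 and the scaffold gene Slx4 0.01. None of these passed.

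No end joining gene passed. At an unadjusted limma p under 0.05 only Xrcc4 was lower, and voom called it too. Xrcc4 encodes the partner of DNA ligase IV (chromosome 13, 89774027 to 90089608). It read 2.52, 2.06 and 2.02 FPKM in the wild-type libraries and 1.29, 1.81 and 1.62 FPKM in the knockout libraries, and the groups did not overlap. Its log2 fold change of -0.46 was close to that of Chek1, but its standard error was larger (SE 0.152, limma adjusted p = 0.0755, voom adjusted p = 0.0119). Xrcc6, which encodes the Ku70 end-binding protein, read 22.2, 22.8 and 23.0 FPKM in the wild-type libraries and 21.9, 21.3 and 21.1 FPKM in the knockout libraries (log2 fold change -0.08, 95% interval -0.17 to 0.01). Together with Xrcc5, which encodes Ku80, it was the highest expressed of the 46 genes per length of exon. Xrcc5 had a log2 fold change of 0.01, Prkdc, the gene of the DNA-dependent kinase, -0.12 and Lig4 0.14.

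Of the 10 Fanconi genes 1 fell, a share near the 7.83% of all genes, and none rose, while 9 did not pass, and the median log2 fold change was 0.00. These counts cover only genes with a Fanc symbol. Brip1, also known as FANCJ, was counted under recombination, where it fell. Fancg encodes a subunit of the core complex, the ubiquitin ligase of the pathway (chromosome 4, 43002343 to 43010506). It read 7.82, 9.005 and 9.19 FPKM in the wild-type libraries and 7.06, 6.40 and 5.89 FPKM in the knockout libraries. Wild-type replicate 1 was closest to the knockout libraries without overlapping them (log2 fold change -0.42, SE 0.086, limma adjusted p = 0.0158), and the call was lost without wild-type replicate 2 or wild-type replicate 3. Fancl, the catalytic subunit of the same ligase, read 4.57, 4.49 and 4.16 FPKM in the wild-type libraries and 3.93, 4.06 and 3.40 FPKM in the knockout libraries. Its groups did not overlap either, but it did not pass (log2 fold change -0.21, limma adjusted p = 0.140). The other core genes had log2 fold changes of 0.04 for Fanca, -0.14 for Fancc, 0.05 for Fance, 0.03 for Fancf and 0.08 for Fancm, which encodes the translocase that anchors the complex. Fancb, on the X chromosome, had 0.43, with the widest interval of the 46 (-0.12 to 0.98). It rested on as few as 19 fragments in a library. The targets of the ligase, Fancd2 and Fanci, had log2 fold changes of -0.03 and -0.15.

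**Figure D2:**
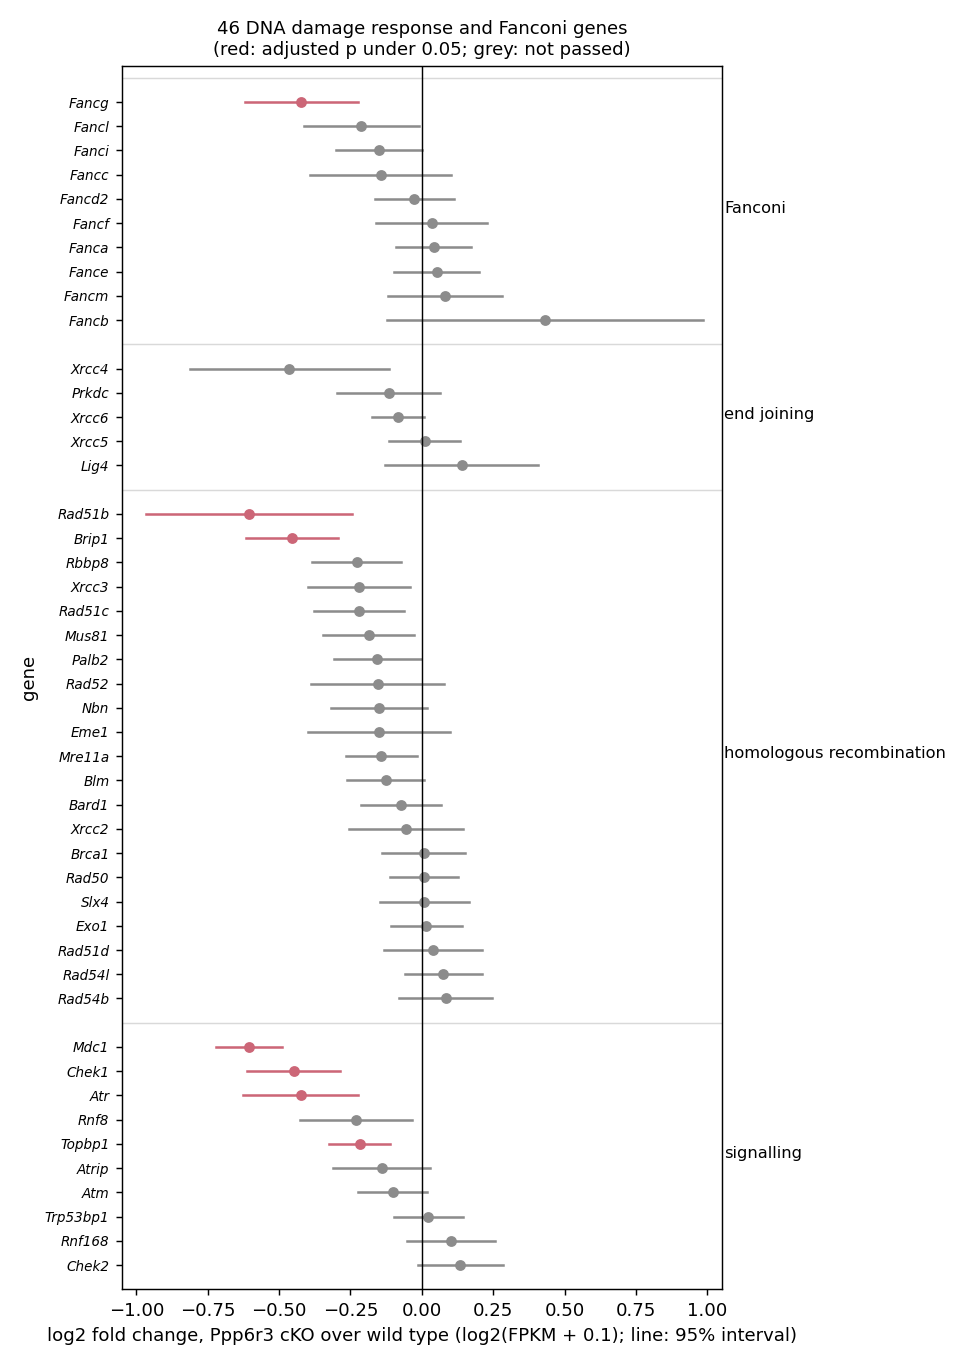
Log2 fold change (Ppp6r3 cKO over wild type, on the log2(FPKM + 0.1) scale) of each of the 46 genes with its 95% interval from limma, grouped by pathway; red marks the 7 genes with an adjusted p under 0.05 and grey the 39 that did not pass. The red points run from -0.61 (Mdc1) to -0.22 (Topbp1), and Fancb has the widest interval.

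**Figure D3:**
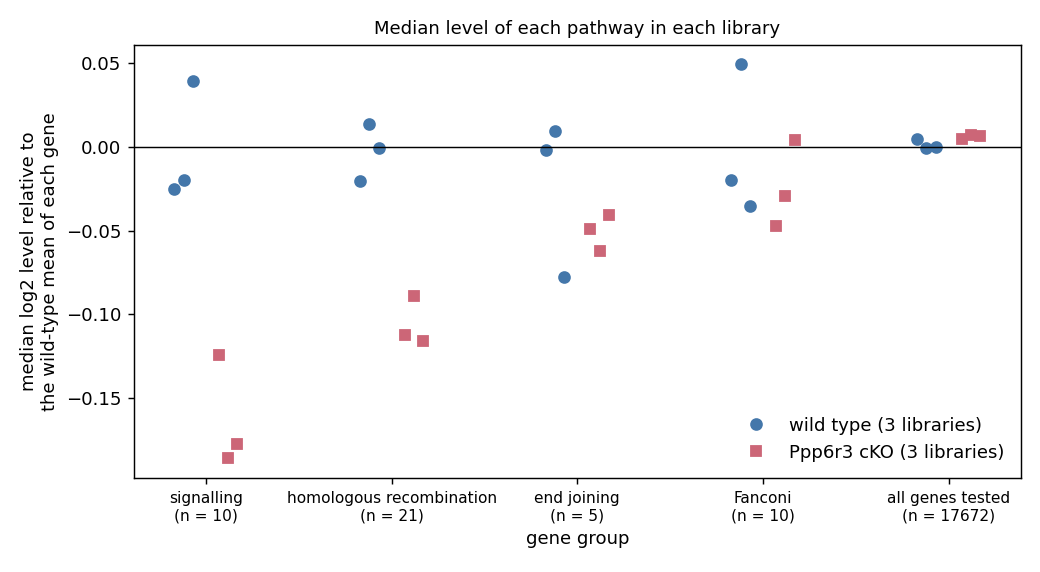
Median over the genes of each pathway of the log2 level relative to each gene's wild-type mean, in each of the 6 libraries, beside all 17672 genes tested. The signalling and recombination medians of the knockout libraries (-0.19 to -0.09) lie below those of the wild-type libraries (-0.03 to 0.04), while for end joining and Fanconi genes the groups overlap.

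By library, the median of the signalling genes relative to wild type was -0.12, -0.19 and -0.18 in the 3 Ppp6r3 cKO libraries. For recombination genes it was -0.11, -0.09 and -0.12. The end joining and Fanconi medians of the knockout libraries lay within or beside the wild-type range, from -0.06 to 0.004. The difference between pathways was not tested.

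The same pathways hold further genes outside the 46. Of 66 such genes 17 (25.8%) fell and 2 (3.03%) rose, against 7.83% and 7.65% of all genes, while 47 did not pass. Their median log2 fold change was -0.09. Without wild-type replicate 2 the count that fell was 11 and without wild-type replicate 3 it was 10, and 1 rose without any 1 of the wild-type libraries. Recombination held 10 of the 17: 10 of 21 (47.6%) fell and none rose (median -0.25). In signalling 5 of 22 fell (22.7%) and 1 rose. In end joining 1 of 11 fell (9.09%) and 1 rose, and in the Fanconi pathway 1 of 12 fell (8.33%) and none rose. The last 2 shares that fell are near the 7.83% of all genes. The 10 of the 66 with the smallest p were 9 that fell and Parp1, the gene of a sensor of strand breaks, which rose: its mean was 57.7 ± 0.44 FPKM in the wild-type and 72.1 ± 1.87 FPKM in the knockout libraries (SD, n = 3 per group), a log2 fold change of 0.32 with a limma adjusted p of 0.00162.

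Of the 9, 8 are described here. Brca2, a mediator of homologous recombination, had a log2 fold change of -0.58. Bre, a member of the BRCA1-A complex now named Babam2, had -0.57, and its complex partner Uimc1 had -0.28. Among the clamp genes Rad9b had -0.48. The helicase genes Recql, Helq and Rtel1 had -0.46, -0.45 and -0.29. Ube2t, which encodes the ubiquitin-conjugating enzyme that works with FANCL, had -0.48. These 8 fell with limma adjusted p from 0.00164 to 0.00903. Other genes of the BRCA1-A complex, Babam1 (0.04), Brcc3 (0.04) and Fam175a (-0.13), did not pass. Nor did the clamp genes Rad9a (0.09), Hus1 (-0.03) and Rad1 (-0.26), while Hus1b fell (-0.63, limma adjusted p = 0.0168).

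**Figure D4:**
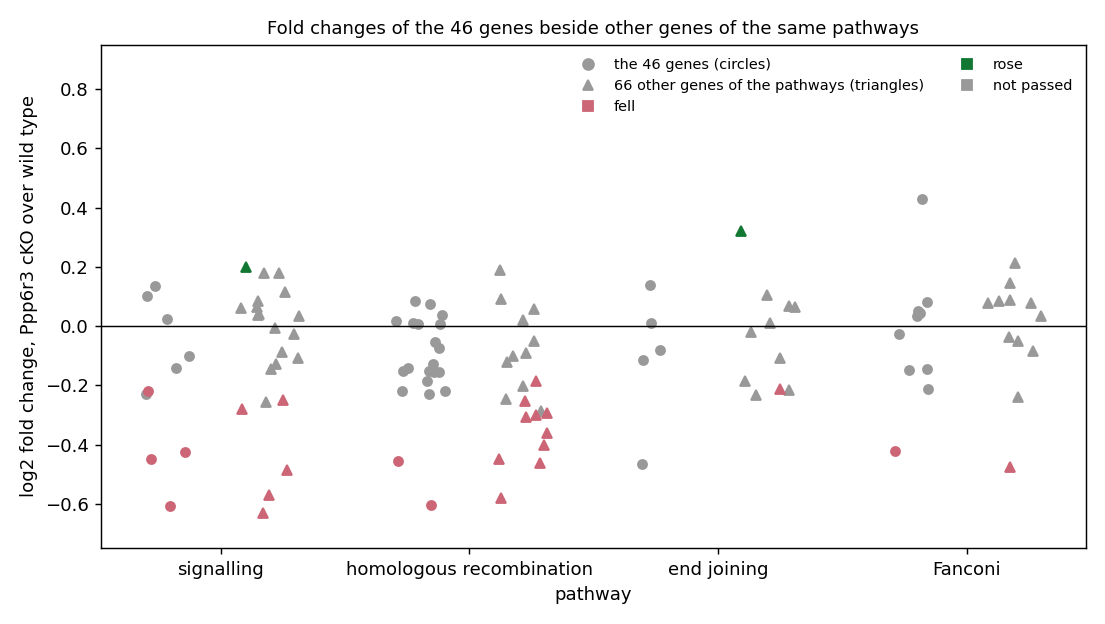
Log2 fold change (Ppp6r3 cKO over wild type) of the 46 genes (circles) and of 66 other genes of the same pathways (triangles), by pathway; red fell, green rose and grey did not pass. The triangles of homologous recombination hold 10 red points of 21, and the only green points are Parp1 and Wrnip1.

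Genes of S phase moved in both directions. Of 22 tested 4 (18.2%) fell and 3 (13.6%) rose, against 7.83% and 7.65% of all genes, while 15 did not pass. Their median log2 fold change was -0.02. Ccne2, a cyclin of S phase entry, fell (-0.52), as did Rrm2 (-0.34), Mcm5 (-0.24) and Cdc45 (-0.17), while Cdt1 (0.31), Chaf1a (0.29) and Mcm2 (0.18) rose. Without wild-type replicate 1 or 3 only 1 S phase gene rose, and without wild-type replicate 2 it was 0.

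Markers of meiotic cells moved with the 7 genes. All 23 listed meiotic prophase markers fell, with a median log2 fold change of -0.90. Their summed level was 577 to 585 FPKM in the wild-type libraries and 297 to 302 FPKM in the knockout libraries, with no marker at 0. Stra8, a gene needed for entry into meiosis, read 130.8, 131.5 and 127.3 FPKM in the wild-type libraries and 52.5, 53.0 and 48.7 FPKM in the knockout libraries. Markers of undifferentiated spermatogonia summed to 66.4 to 68.1 FPKM in the wild-type libraries and 82.04 to 82.4 FPKM in the knockout libraries, and 5 of 11 tested rose and none fell, Zbtb16 among them (log2 fold change 0.50). Their part in the values of the 46 genes was not tested.

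Markers of somatic cells moved too. Endothelial markers rose in 6 of 8 (summed 39.1 to 44.03 against 61.3 to 65.8 FPKM) and macrophage markers in 4 of 8 (109 to 114 against 146 to 157 FPKM). Erythroid markers fell in 3 of 5 tested (320 to 356 against 203 to 223 FPKM) and myoid markers in 3 of 6 (603 to 629 against 508 to 536 FPKM). Sertoli markers were split, with 2 of 12 rising and 2 falling (2224 to 2295 against 2113 to 2318 FPKM), and 1 of 8 Leydig markers rose (262 to 275 against 288 to 290.4 FPKM). None of these markers was at 0 in every library, and their part in the values of the 46 genes was not tested.

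How firmly each call held depended on the libraries. Mdc1, Chek1 and Brip1 passed under all 17 alternatives. Leaving out wild-type replicate 2 or wild-type replicate 3 left only these 3 genes called. Atr, Fancg and Rad51b also lost their call with no filter on low values, and Atr, Fancg, Rad51b and Topbp1 at a threshold of 0.01. Rad51b kept its call under 6 of the 17 alternatives, the fewest of the 7 genes. Without Ppp6r3 cKO replicate 1, the library that differed most from its group, 7 of the 46 genes fell, Rnf8 in place of Rad51b, and after a GC and length correction 9 fell, with Rbbp8 and Mus81 added. The 23 of the 46 genes lower in GC held 5 of the 7 that fell, and their median in Ppp6r3 cKO replicate 1 was -0.17, against -0.07 in each of the other 2. The 23 higher in GC held 2 that fell, with medians of -0.07, -0.09 and -0.01 in Ppp6r3 cKO replicates 1, 2 and 3.

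Exons of 22 of the 46 genes overlap exons of another gene, and the strand setting of the counting is not given in the sources used here. Of the 7 that fell, Atr is the only one with such an overlap. Its overlaps with 1700065D16Rik, Gm16794 and Gm24004 cover 3.07%, 1.96% and 0.75% of its exon length, and each of these genes stood below 1 FPKM. Some genes that did not pass overlap more, or overlap stronger genes. Rad54l shares 15.4% of its exon length with Lrrc41 on the opposite strand, at 33.3 FPKM in wild type against 5.64 for Rad54l. Eme1 overlaps Lrrc59 (52.1 FPKM in wild type), also on the opposite strand. Rad54b shares 35.8% with Fsbp on the same strand, but Fsbp read only 0.24 FPKM in wild type. The part of such overlaps in the values of these genes was not tested.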

How the data were processed

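Polyadenylated RNA of whole testis was sequenced in 6 libraries, prepared with a KAPA stranded kit per the labels' protocols. Alignment of read pairs to mm10 used HISAT2 2.0.5, per the design text, and DESeq2 is listed in the submitters' processing notes. The counter, its strand setting and the annotation release are not given in the sources used here.

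The values deposited by the authors are FPKM, although the table is named as raw counts. Multiplied by the exon length in GENCODE M21, they were whole multiples of 1 step per library (tolerance 0.01) for 31625 of 32589 genes above 0 (97.0%). The other 964, Rnf8 and Rbbp8 among them, were whole with another length, which for genes of few fragments can nearly always be found. The depth is therefore an inference from the values.

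The test covered the 17672 genes, all 46 members among them, for which 3 or more libraries held 10 or more recovered fragments. log2(FPKM + 0.1) was fitted with limma 3.58.1 in R 4.3.3 (trend, robust, 2-sided), with Benjamini-Hochberg adjustment over all genes tested and 0.05 as the threshold. Fold changes on this scale understate the change of low genes. The fit was also run on simulated counts that had the same dispersion for all genes and no divergent library, a simpler setting than these data. Alternatives changed the pseudocount, filter, scaling, model, threshold, robust estimation and libraries, or added a replicate block or a spline correction (5 degrees of freedom) for GC and length. Members and lists were chosen with earlier results of these data known. Values in every library are given for members that passed and, where under 2 passed in a pathway, for the 2 with the smallest p. Values in every library for Chek2 and the kinase ratios were added after they were seen. Of the 10 other pathway genes with the smallest p all but 1, which is not reported here, are named, and of the S phase genes those that passed. Wrnip1, Babam1, Brcc3, Fam175a, Rad9a, Hus1, Rad1 and Hus1b are named outside that rule. All listed symbols were found, 2 of them (Bre and Fam175a) through RefSeq synonyms. No 2 libraries of a group agreed within counting noise: their chi-square per degree of freedom ran from 2.23 to 4.35. Python 3.11.15, numpy 2.4.6, pandas 2.3.3 and matplotlib 3.10.9 were used.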

Additional observations from a re-analysis of the deposited data

How the results depend on the processing

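No alternative reversed the direction of Ppp6r3 (-0.47 to -0.43 without 1 library) or of any member given by library, Chek2 included. No member was called higher under any alternative. With no filter 1508 genes changed, 4 of the 46 fell (1 in recombination, 0 in the Fanconi group), and of the other lists 11 pathway genes fell, 1 rose and 2 S phase genes fell. At a threshold of 0.01, 889 genes changed and 3 of the 46 fell (2 in signalling, 1 in recombination, 0 in the Fanconi group), with 9 other pathway genes lower, 1 higher, 1 S phase gene lower and 0 higher. A stricter threshold passes fewer genes by construction; for the other settings the cause was not tested. Voom called 13 of the 46 (6 in recombination, 1 in end joining) and 4 other pathway genes higher. With at least 0.5 FPKM in at least 3 libraries, 1 recombination gene fell. After the GC and length correction the median of the 46 was -0.103 and 4 recombination genes fell; with a pseudocount of 1 the median was -0.104.

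Leaving out 1 library gave 1235 to 2398 changed genes, 3 to 7 of the 46 lower (signalling 2 to 5, recombination 1 to 2, Fanconi 0 to 1), a median from -0.118 to -0.094, 10 to 17 other pathway genes lower and 1 to 3 higher, and 3 to 4 S phase genes lower and 0 to 3 higher. These fits held fewer libraries. The counts fell most without a wild-type library: 1620, 1235 and 1331 genes changed without replicate 1, 2 and 3, and 3 of the 46 fell without replicate 2 or 3.

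Samples with the same replicate number showed no shared deviation (correlations of 0.016, -0.007 and -0.007 over 17672 genes). Whether the numbers pair samples is not in the labels, and 3 libraries per group cannot settle it. With the replicate number as a block, 2192 genes changed and 6 of the 46 fell, 1 of them in recombination, Rad51b being lost (adjusted p = 0.0541); Ppp6r3 stayed at -0.45. With the block and the GC and length correction the median was -0.103 and 1 recombination gene fell.

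Depth limits the weakest genes most: Fancb rested on as few as 19 fragments in a library and Rad51b on 51.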
